A study of Mus musculus with 12 samples.

Results

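RNA-seq of bilCLiP spheroids was compared with RNA-seq of hepCLiP spheroids, 3 libraries of each, out of 12 libraries in the series. Per the labels, bilCLiP cells were derived from biliary epithelial cells (BECs), the lining cells of the bile ducts, and hepCLiP cells from hepatocytes, both of mouse liver. The libraries were grouped by their titles, bilCLiP 3D replicates 1 to 3 against hepCLiP 3D replicates 1 to 3, and the genes described are the 14217 autosomal genes among the 14798 expressed genes tested, out of 53599 genes in the count table. The treatment tag of the 3 bilCLiP 3D samples says 2D, against their titles, and that of hepCLiP 2D replicate 3 says 3D. All 4 groups of the series (hepCLiP and bilCLiP, each in 2D and in 3D) were kept in small hepatocyte medium with the small molecules Y-27632 (a kinase inhibitor), A83-01 (an inhibitor of TGF-beta receptors) and CHIR99021 (an inhibitor of GSK3). The 2D cultures grew on collagen with 10% fetal bovine serum (FBS). For 3D, cells were aggregated in microwells for 3 days without FBS and then cultured in suspension as spheroids, with 10 ng/ml oncostatin M (a relative of interleukin 6 that promotes hepatocyte maturation), for another 6 to 8 days. All bilCLiP samples and hepCLiP replicate 2 are labelled RosaYFP (a yellow fluorescent reporter in the Rosa26 locus), and hepCLiP replicates 1 and 3 are labelled RosaConfetti, a multicolour reporter in that locus. How many animals the replicates came from is not stated in the labels, so a p-value here reflects the spread among these cultures, which may be technical. In the main fit this spread was estimated per gene over all 12 libraries, 2D included. An SE or interval thus does not measure the 3D spread alone.

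Hepatocytes and biliary epithelial cells arise from a common embryonic progenitor. Hepatocytes make plasma proteins, glucose, lipids, urea and bile acids, and their identity is maintained by nuclear factors such as Hnf4a and Cebpa. Biliary cells form ducts that carry and modify bile, express keratins such as Krt7 and Krt19, the factor Sox9 and genes of the primary cilium, and each lineage can take on features of the other after liver injury or in culture. The question of the comparison is how much of the origin is still visible in the RNA once both kinds of cells have been put under the same hepatic induction.

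Total counts of the 3D libraries ran from 16142365 to 21134927, with 12822 to 13536 genes reaching 10 counts or more. Values per library are given as CPM, the counts scaled to TMM-normalised library sizes, in the order of replicates 1, 2 and 3. Where a pair of such triplets is joined by "against", the first is hepCLiP and the second bilCLiP, and the number after ± is the standard error of the log2 fold change. Across genes, which are not independent replicates, the log2(CPM + 1) values of the 3D libraries correlated at 0.965 to 0.969 within hepCLiP, at 0.958 to 0.978 within bilCLiP and at 0.938 to 0.969 between the origins. The first principal component of the 6 libraries held 39.6% of the variance and separated the origins, with scores of -45.9, -29.2 and -19.2 in hepCLiP and 49.8, 16.5 and 28.0 in bilCLiP. The second held 22.2% and did not separate them. The 10 most abundant genes took 23.2%, 21.1% and 18.3% of the counts in hepCLiP and 17.6%, 19.7% and 20.4% in bilCLiP, so the groups overlapped (exact two-sided permutation p = 0.4, where 0.1 is the smallest p that 3 against 3 allows).

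Sex-linked genes set the libraries apart in the same direction as origin. Xist, the RNA that silences one X chromosome in female cells, had 0, 0.284 and 0.0695 CPM in hepCLiP 3D and 893, 1014 and 1052 CPM in bilCLiP 3D. Ddx3y, a Y-linked RNA helicase gene, had 100.1, 0 and 128 CPM in hepCLiP 3D and no count in any bilCLiP 3D library, and Eif2s3y, Kdm5d and Uty of the Y chromosome were likewise counted in hepCLiP 3D replicates 1 and 3 only. Thus Y-linked RNA was present in the RosaConfetti samples and absent from all RosaYFP samples of the 3D culture, and Xist RNA marked bilCLiP. Origin and Xist RNA cannot be told apart in this design, and the comparison within RosaYFP samples (1 hepCLiP against 3 bilCLiP libraries in 3D) is at the same time a comparison of Y-negative libraries. The transcript of the Rosa26 locus itself, Gt(ROSA)26Sor, had 1.03, 4.26 and 0.695 CPM in hepCLiP 3D and 13.5, 13.3 and 14.7 CPM in bilCLiP 3D, a log2 fold change of 2.79 ± 0.67 (SE) that was not called (adjusted p = 0.156, edgeR's quasi-likelihood test with Benjamini-Hochberg adjustment over all genes). The groups did not overlap, although hepCLiP replicate 2 carries the same reporter label as bilCLiP. Thumpd3, the gene next to that locus, had 22, 27.4 and 32 against 34.9, 44.7 and 35.4 CPM (0.50 ± 0.17, adjusted p = 0.207), and Setd5 on the other side had 73.5, 59.4 and 69.5 against 75, 64.8 and 73.6 CPM (0.08 ± 0.14, adjusted p = 0.821). The role of the sex-linked and reporter differences in the results below was not tested beyond the fits named with them.

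**Figure D1:**
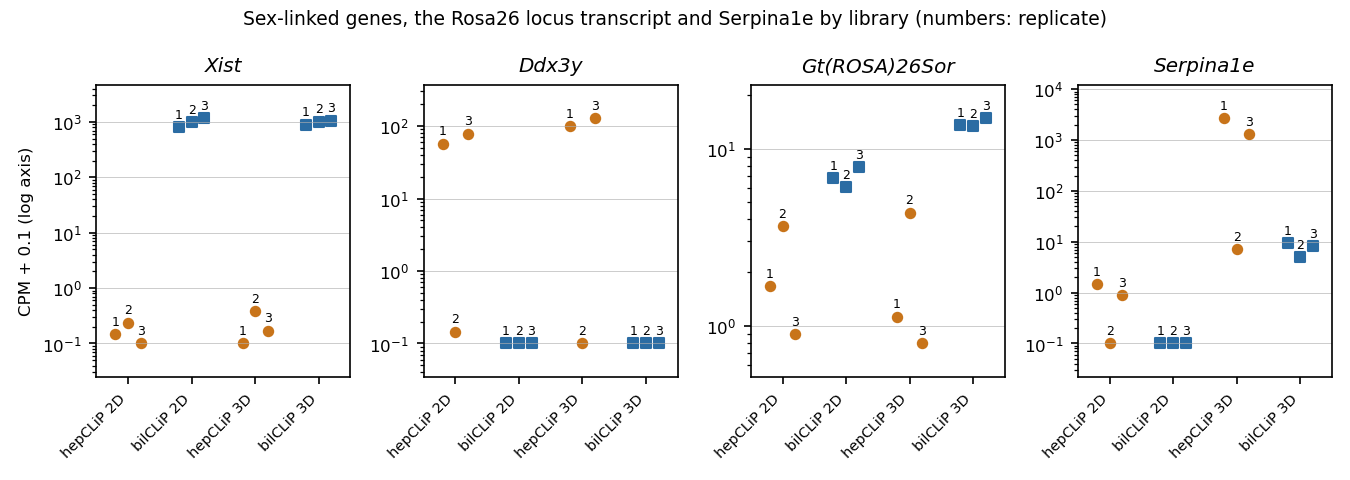
CPM + 0.1 on a log axis of Xist, Ddx3y, Gt(ROSA)26Sor and Serpina1e in all 12 libraries, 1 point per library labelled with its replicate number (circles, hepCLiP; squares, bilCLiP). Xist is at 893 to 1052 CPM in bilCLiP 3D against at most 0.284 in hepCLiP 3D, and Ddx3y and Serpina1e in 3D are high in hepCLiP replicates 1 and 3 only.

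Few genes were called between the origins in 3D. At an adjusted p under 0.05 by edgeR's quasi-likelihood test, 14 autosomal genes passed, 7 higher and 7 lower in bilCLiP, which is 0.0985% of the autosomal genes tested (0.0492% in each direction). With Xist, 15 of all genes tested were called (0.101%). Each of the 14 differed at least 2-fold and had groups that did not overlap. Without adjustment, 2358 autosomal genes had p under 0.05, 1138 higher and 1220 lower in bilCLiP. DESeq2 called 624 autosomal genes, 236 higher and 388 lower (1.66% and 2.73%), among them all 14. In 1620 autosomal genes (11.4%) all 3 bilCLiP libraries lay above all 3 hepCLiP libraries, and in 1463 (10.3%) all lay below. The median log2 fold change of all autosomal genes was -0.0075.

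The genes called higher in bilCLiP 3D included a pair of cell surface and matrix genes that hepCLiP hardly expressed. Tm4sf1, which encodes a tetraspanin-like membrane protein of migrating cells, had 0.44, 0.142 and 1.18 CPM in hepCLiP 3D and 127, 182 and 173 CPM in bilCLiP 3D. Every bilCLiP library lay far above every hepCLiP library, a 268-fold difference (log2 8.07 ± 0.65, SE; adjusted p = 0.00052). Sparc, which encodes a secreted protein that binds collagen, had 1.03, 1.7 and 0.417 CPM in hepCLiP and 102, 58.1 and 78.8 CPM in bilCLiP, 75.7-fold higher (log2 6.24 ± 0.45, adjusted p = 0.00025). These were the only 2 of the 14 that stayed called whichever single library of the 12 was left out, with adjusted p of 0.000242 to 0.0121 for Tm4sf1 and 0.000312 to 0.00732 for Sparc. Sparc was also the only 1 of the 14 called among RosaYFP samples alone (log2 fold change 5.54, adjusted p = 0.0488), where the single hepCLiP library per culture is assumed to vary like the bilCLiP libraries.

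Cyba encodes p22phox, the membrane subunit shared by several NADPH oxidases, which make superoxide. No read of it was counted in the 3 hepCLiP 3D libraries, against 642 counts, or 13.6, 8.04 and 17.1 CPM, in bilCLiP 3D. Against 3 counts summed over the hepCLiP group, this is at least 180.9-fold higher, a bound that covers counting error only (adjusted p = 0.0136). In 2D, Cyba had 0.185, 0 and 0.050 CPM in hepCLiP and 23.1, 9.21 and 22.6 CPM in bilCLiP. The adjusted p of its 3D difference was 0.0147 to 0.0715 with 1 library left out, and the call was lost without bilCLiP 3D replicate 1 or 3 or hepCLiP 3D replicate 1.

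Dcdc2a was the only called gene among 31 tested biliary markers. It encodes a microtubule-binding protein of the primary cilium, and loss of its human counterpart causes a sclerosing disease of the bile ducts. It had 1.1, 1.63 and 3.41 CPM in hepCLiP 3D and 45.1, 26.8 and 18.3 CPM in bilCLiP 3D, 14.6-fold higher (log2 3.87 ± 0.46, adjusted p = 0.0136). The lowest bilCLiP library still lay above the highest hepCLiP library. The adjusted p was 0.0138 to 0.0713 with 1 library left out, over 0.05 without hepCLiP 3D replicate 1 or 2.

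The other called rises were smaller. Cryab, a small heat shock protein that keeps damaged proteins soluble, had 6.01, 7.66 and 13.1 CPM in hepCLiP and 69.8, 38.9 and 46.2 CPM in bilCLiP (log2 2.53 ± 0.37, adjusted p = 0.0399). Its gene model overlaps that of Hspb2, another small heat shock gene, which had 0, 0.142 and 0 against 0.725, 0.23 and 0.406 CPM, and the reads of the pair could not be separated by strand here. Birc2, which encodes the ubiquitin ligase cIAP1 of the TNF receptor pathway, had 45.9, 41 and 48.8 CPM in hepCLiP and 108, 96.7 and 122 CPM in bilCLiP, a narrow spread on both sides (log2 1.27 ± 0.17, adjusted p = 0.0257). Flrt3, which encodes an adhesion protein that binds FGF receptors, had 0.44, 1.14 and 0.764 against 3.03, 4.25 and 5.69 CPM (log2 2.46 ± 0.37, adjusted p = 0.0433), and was named after its values were seen because its level was below the 5 CPM that the naming rule asks for. With 1 library left out, the adjusted p was 0.0254 to 0.189 for Cryab, 0.0203 to 0.15 for Birc2 and 0.0347 to 0.217 for Flrt3.

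The genes called lower in bilCLiP 3D were led by enzymes. Kyat3, a kynurenine aminotransferase of tryptophan breakdown that also cleaves cysteine conjugates, had 209, 231 and 112 CPM in hepCLiP 3D and 4.41, 4.59 and 0.986 CPM in bilCLiP 3D, 55.3-fold lower (log2 -5.79 ± 0.70, adjusted p = 0.0136). All bilCLiP libraries lay under 5 CPM and all hepCLiP libraries over 100 CPM. Nat8f2, an N-acetyltransferase of the Nat8 family, had 139, 53.1 and 114 CPM in hepCLiP and 7.84, 6.31 and 9.11 CPM in bilCLiP (log2 -3.72 ± 0.45, adjusted p = 0.0136). The family lies as a cluster of near-identical copies, among which reads can be split, so the assignment to Nat8f2 is uncertain. Its neighbour Nat8f1 had 61.8, 52.4 and 80.1 against 30.2, 44.4 and 22.5 CPM and was not called (-1.001 ± 0.41, adjusted p = 0.262). With 1 library left out, the adjusted p was 0.00899 to 0.0761 for Kyat3 and 0.00586 to 0.113 for Nat8f2. Both calls were lost without hepCLiP 3D replicate 1 and without each of the 3 bilCLiP 3D replicates.

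Thrsp, a regulator of fatty acid synthesis in liver, was low in both origins, with 2.34, 3.05 and 2.92 CPM in hepCLiP and 0.132, 0.0574 and 0.116 CPM in bilCLiP (log2 -4.69 ± 0.71, adjusted p = 0.0433). Tmc5, of the family of transmembrane channel-like proteins, had 63.6, 15 and 26.5 CPM in hepCLiP, where replicate 1 was highest, and 1.12, 3.1 and 2.15 CPM in bilCLiP (log2 -4.04 ± 0.61, adjusted p = 0.0433). The remaining 3 genes fell by less than 3-fold but with tight groups. Nudt18, a hydrolase of oxidized nucleotides, had 39.9, 35.7 and 34.3 CPM in hepCLiP and 14.8, 10.6 and 14.1 CPM in bilCLiP (log2 -1.48 ± 0.20, adjusted p = 0.0257). Hapln4, a link protein of hyaluronan, had 61.3, 69.2 and 45 against 21.4, 26.9 and 17 CPM (log2 -1.43 ± 0.20, adjusted p = 0.0277). H1f2, a linker histone gene, had 149, 187 and 166 against 74.1, 70.1 and 60.4 CPM (log2 -1.29 ± 0.19, adjusted p = 0.0404). With 1 library left out, the adjusted p was 0.0345 to 0.275 for Thrsp, 0.0356 to 0.275 for Tmc5, 0.0113 to 0.14 for Nudt18, 0.021 to 0.141 for Hapln4 and 0.0221 to 0.256 for H1f2.

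**Figure D2:**
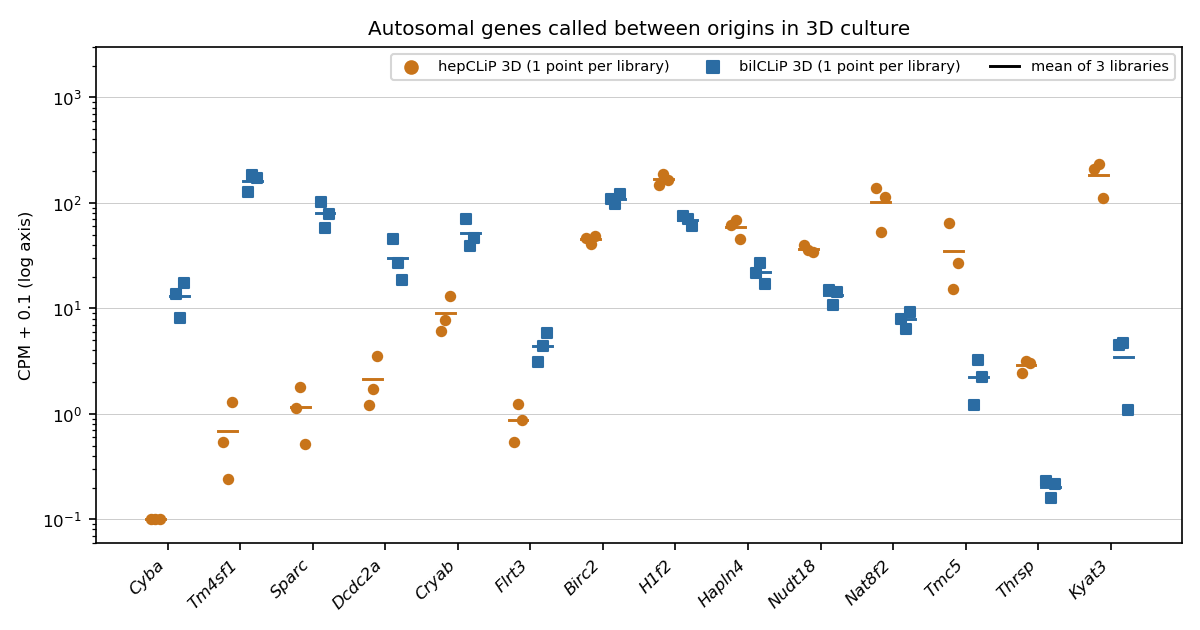
CPM + 0.1 on a log axis of the 14 autosomal genes called between bilCLiP 3D (squares) and hepCLiP 3D (circles), 1 point per library and a line at the mean of 3 libraries. In each gene the 3 libraries of one origin lie wholly above or below the 3 of the other, with Cyba at 0 CPM in hepCLiP.

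How many of the 14 were called depended on the libraries in the fit. Without hepCLiP 3D replicate 1, Sparc and Tm4sf1 remained, and without bilCLiP 3D replicate 1 or 3, these and Dcdc2a remained. Without bilCLiP 3D replicate 2, 5 remained (Cyba, Dcdc2a, Hapln4, Sparc and Tm4sf1), and without hepCLiP 3D replicate 2, 6 remained (Cyba, Kyat3, Nat8f2, Sparc, Tm4sf1 and Tmc5). Leaving out a 2D library left 7, 8 and 8 of them for bilCLiP 2D replicates 1, 2 and 3, and 13, 12 and 11 for hepCLiP 2D replicates 1, 2 and 3. Without hepCLiP 3D replicate 3 all 14 remained and the count over all genes rose from 15 to 251, with 129 higher and 122 lower in bilCLiP. That library had the first principal component score nearest to bilCLiP. In the sample descriptions, its identifier lies nearer in number to those of bilCLiP 3D than to those of hepCLiP 3D replicates 1 and 2. What these identifiers stand for is not stated, and their part in the results was not tested. Fitted on the 6 3D libraries alone, 3 genes were called, Xist, Sparc and Tm4sf1. With the replicate number as a block in that fit, Sparc and Tm4sf1 were lost (adjusted p = 0.119 and 0.0742) and Kyat3 and Nat8f2 were called (0.0148 and 0.0381). The block in the fit of 12 libraries kept 13 of the 14 and lost Tmc5 (0.0622). With the reporter genotype as a covariate, 8 of the 14 remained (Birc2, Cyba, Hapln4, Kyat3, Nat8f2, Sparc, Thrsp and Tm4sf1). All bilCLiP libraries are RosaYFP, so the genotype effect is set by hepCLiP replicate 2 against hepCLiP replicates 1 and 3. It cannot be told apart from Y-linked RNA, and the origin difference in that fit rests largely on hepCLiP replicate 2. In none of these fits did any of the 14 change direction.

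The same genes were then read in 2D, where the cells had not been induced. The 2D libraries are not independent of the 3D ones, since the spheroids were made from the 2D cultures. The deviations of same-numbered 2D and 3D libraries from their group means correlated across genes at 0.432 to 0.513 within an origin. In 2D, 19 autosomal genes were called between the origins (0.134%), and 6 of the 14 were among them in the same direction: Tm4sf1, Sparc, Cyba, Dcdc2a, Kyat3 and Hapln4. All 14 had the same sign in 2D as in 3D.

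Tm4sf1 had 0.0925, 0.182 and 0.20 CPM in hepCLiP 2D and 133, 451 and 245 CPM in bilCLiP 2D (log2 10.72 ± 0.73, adjusted p = 0.000155). Kyat3 had 93.3, 121 and 48.3 against 6.37, 2.06 and 2.05 CPM in 2D (log2 -4.64 ± 0.66, adjusted p = 0.0271), so the near absence of each from one origin held in both cultures. Sparc was at 27.5, 22.5 and 16 CPM in hepCLiP 2D and 459.9, 296 and 354 CPM in bilCLiP 2D (log2 4.07 ± 0.38, adjusted p = 0.00222), with higher values in both origins than in 3D. Dcdc2a had 6.8, 10.3 and 8.39 against 44.5, 72.1 and 66.9 CPM in 2D (log2 2.85 ± 0.42, adjusted p = 0.0304). Hapln4 had 7.63, 6.91 and 7.19 against 2.37, 2.53 and 2.23 CPM (log2 -1.61 ± 0.21, adjusted p = 0.0183), a like ratio at a lower level than in 3D.

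The other 8 were not called in 2D. H1f2 had 139.6, 85.4 and 113 CPM in hepCLiP 2D and 109, 81.2 and 102 CPM in bilCLiP 2D, groups that overlapped (log2 -0.21 ± 0.19, adjusted p = 0.64), and Birc2 had 32.1, 23.4 and 27.4 against 38.1, 29.8 and 44.3 CPM (log2 0.44 ± 0.17, adjusted p = 0.286). Flrt3 had higher values in 2D than in 3D in both origins, at 28.6, 42.1 and 55.9 against 85.2, 79.4 and 100.3 CPM, and not called there (log2 1.06 ± 0.29, adjusted p = 0.19). The test of the difference between the 3D and 2D contrasts, an interaction term in the same fit, called no gene by edgeR (532 at unadjusted p under 0.05 over all genes). These fits take the 12 libraries as independent. With origin and replicate number together as a block, an alternative added after seeing the data, edgeR again called none, with 1236 at unadjusted p under 0.05. The labels do not say whether same-numbered 2D and 3D libraries share a cell preparation. Without the block DESeq2 called 16, 2 of the 14 among them. These were Sparc, whose difference was larger in 3D by 2.13 on the log2 scale (DESeq2 adjusted p = 0.0331), and H1f2, whose interaction was -1.13 (DESeq2 adjusted p = 0.0487). In the edgeR fit with the block their adjusted p was 0.287 and 0.495.

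**Figure D3:**
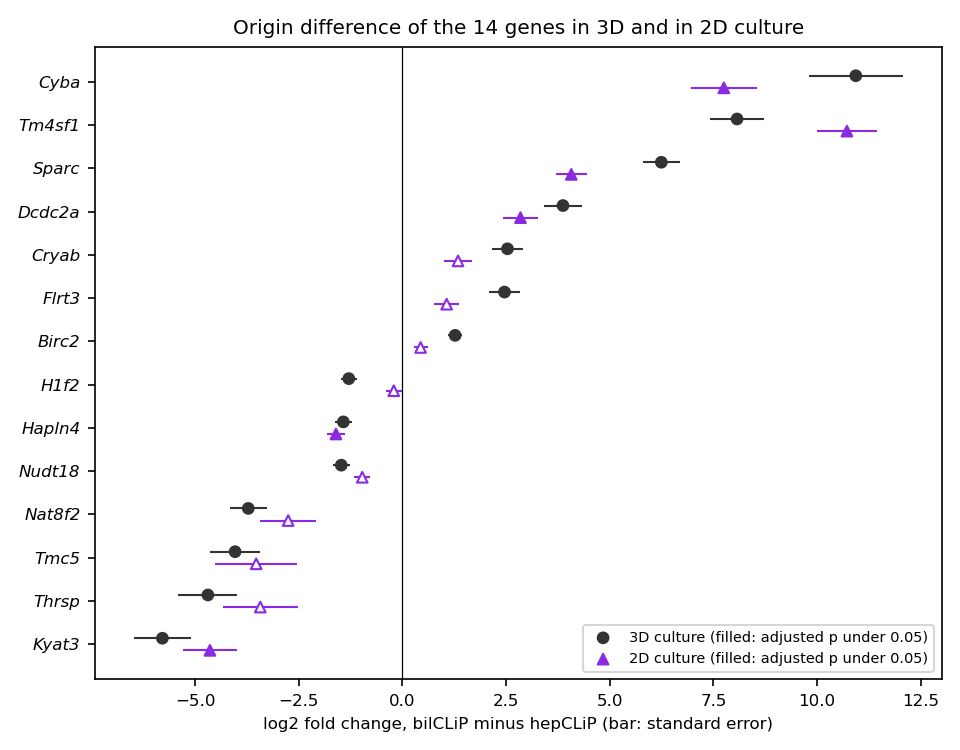
Log2 fold change of bilCLiP against hepCLiP with its standard error for the 14 genes, in 3D (circles) and in 2D (triangles), filled where the adjusted p is under 0.05. All 14 points of 2D lie on the same side of 0 as in 3D, and 6 of them are filled.

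Tm4sf1, Cyba and Kyat3 were near absent from one origin in both cultures, so the 250 bases before the start of each are printed 5′ to 3′ in the direction of the gene, from RefSeq on GRCm38.p6 (the submitters' processing notes name GRCm39 for the counts). Capitals mark matches, on either strand, to 5 short promoter motifs that were searched: the TATA box (TATAAA), the motif of the factor NF-Y (CCAAT), the motif of Sp1 (GGGCGG), the motif of AP-1 (TGANTCA) and the motif of TEAD factors (GGAATG). The Tm4sf1 window is chr3:57301989-57302238 on the minus strand, the Cyba window chr8:122432941-122433190 on the minus strand and the Kyat3 window chr3:142700798-142701047 on the plus strand.
Tm4sf1: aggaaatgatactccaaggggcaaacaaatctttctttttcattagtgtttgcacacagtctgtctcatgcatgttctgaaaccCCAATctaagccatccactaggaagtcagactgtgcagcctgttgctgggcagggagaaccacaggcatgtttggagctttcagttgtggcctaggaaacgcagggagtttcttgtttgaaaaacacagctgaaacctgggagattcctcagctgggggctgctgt
Cyba: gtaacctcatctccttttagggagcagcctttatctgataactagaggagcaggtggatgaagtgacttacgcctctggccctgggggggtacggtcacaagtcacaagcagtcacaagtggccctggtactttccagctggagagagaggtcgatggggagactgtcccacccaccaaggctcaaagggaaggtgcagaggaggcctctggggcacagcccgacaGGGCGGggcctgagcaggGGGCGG
Kyat3: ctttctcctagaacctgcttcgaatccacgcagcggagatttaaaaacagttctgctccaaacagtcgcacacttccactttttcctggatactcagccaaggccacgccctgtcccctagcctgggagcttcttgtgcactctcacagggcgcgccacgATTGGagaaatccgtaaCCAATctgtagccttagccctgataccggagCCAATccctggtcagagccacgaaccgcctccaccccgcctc
Tm4sf1 had 1 match to the NF-Y motif and Kyat3 had 3, Cyba had 2 matches to the Sp1 motif, and no match overlapped another. Of all 32851 windows of this length in the table, 33.8% held the NF-Y motif, 32.7% the Sp1 motif, 12.6% the TEAD motif, 12.4% the TATA box and 6.75% the AP-1 motif. The window of Dcdc2a held none of the 5. The number of CpG dinucleotides was 1 for Tm4sf1, 6 for Cyba, 13 for Kyat3 and 18 for Dcdc2a, against a median of 6 over all windows. A match describes letters only. The Sparc window overlaps an annotated transcript and is not printed. Hapln4 had no entry.

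Adjacent genes were read next. For each of the 14, the 2 nearest tested genes on each side were read in the RefSeq gene order of GRCm38.p6, 56 genes in all. None was called by edgeR in 3D, 10 had unadjusted p under 0.05, and DESeq2 called 2, Tmem123 and G3bp1, both higher. Of all 14217 autosomal genes, 2358 had unadjusted p under 0.05, and DESeq2 called 1.66% higher and 2.73% lower. The neighbours were not set apart from other genes by these counts. Their log2 fold changes ran from -2.24 to 3.09, with a median absolute value of 0.31. Next to Tm4sf1, the related gene Tm4sf4, a hepatic family member, had 339, 259 and 555 CPM in hepCLiP and 552, 598 and 562 CPM in bilCLiP (log2 0.57 ± 0.38, adjusted p = 0.463). Near Birc2, the membrane protein gene Tmem123 had 146, 187 and 118 against 649.6, 236 and 362 CPM (log2 1.47 ± 0.39, adjusted p = 0.163; DESeq2 adjusted p = 0.0146), without overlap. The matrix protease gene Mmp7 beyond it had 0.293, 25.5 and 1.25 against 81.9, 28 and 121 CPM, also without overlap and with hepCLiP replicates 1 and 3 near 0 (log2 3.09 ± 1.41, adjusted p = 0.304). Birc3, the paralogue of Birc2 in the same region, had 69.8, 61.4 and 44 against 68.2, 68.2 and 64 CPM (log2 0.19 ± 0.19, adjusted p = 0.617).

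Hepatocyte markers were present in the spheroids of both origins. Alb, encoding albumin, had 26620, 21497 and 23141 CPM in hepCLiP 3D and 6026, 19965 and 22893 CPM in bilCLiP 3D, where replicate 1 was low, replicate 2 just under and replicate 3 within the range of hepCLiP. The log2 fold change was -0.54 ± 1.25 (95% interval -3.31 to 2.22, adjusted p = 0.867), an interval that allows a difference of several fold in either direction, and it was 0.43 with the reporter genotype as a covariate. Ttr, encoding the thyroid hormone carrier transthyretin, had 4090.1, 3954 and 4696 CPM in hepCLiP and 6942, 7725 and 6930 CPM in bilCLiP, higher in every bilCLiP library but not called (log2 0.76 ± 0.84, adjusted p = 0.672). These 3D values were tight within each origin, while in 2D Ttr had 636, 73.8 and 420 against 41.1, 675 and 485 CPM. Its SE takes in the spread of both cultures. Apoa1, the main apolipoprotein of high-density lipoprotein, had 18434, 23882 and 9511 against 3706, 13263 and 6937 CPM (log2 -1.12 ± 0.93, adjusted p = 0.565), with groups that overlapped.

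The 35 secreted plasma protein genes had a median log2 fold change of -0.54 in 3D, with 6 above and 29 below 0, 1 with all bilCLiP libraries above and 3 with all below hepCLiP, under the shares of 11.4% and 10.3% over all autosomal genes, and none called. In 2D the median was -1.49. The level of the list, the mean of log2(CPM + 1), was 10.91, 10.92 and 10.56 in hepCLiP 3D and 9.57, 10.65 and 10.18 in bilCLiP 3D, so the groups overlapped and bilCLiP replicate 1 was lowest. Among the members, Apoc3, an apolipoprotein of triglyceride-rich particles, had 216, 169 and 325 against 7.51, 140.2 and 26.9 CPM, and Serpinc1, encoding antithrombin, had 973, 638 and 535 against 12.6, 496 and 96.9 CPM. In both, bilCLiP replicate 2 lay close to hepCLiP and replicates 1 and 3 far below. In bulk RNA, fewer cells of a type and less RNA per cell cannot be told apart.

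Of 18 hepatocyte transcription factor genes, 7 lay lower in every bilCLiP library and none higher, beside 10.3% and 11.4% of all autosomal genes, and none was called by edgeR. The median log2 fold change was -0.52 in 3D and -0.86 in 2D. Hnf4a, the nuclear receptor that maintains the hepatocyte programme, had 997, 1046 and 834 CPM in hepCLiP and 571, 711 and 579 CPM in bilCLiP (log2 -0.63 ± 0.28, adjusted p = 0.299). Cebpa, a basic leucine zipper factor of mature hepatocytes, had 237, 188 and 186 against 63.4, 153 and 93.9 CPM (log2 -0.98 ± 0.27, adjusted p = 0.163; DESeq2 adjusted p = 0.0264). Rxra, the partner of many nuclear receptors, had 654, 773 and 481 against 287, 416 and 272 CPM (log2 -0.97 ± 0.34, adjusted p = 0.221). In each of these 3, the highest bilCLiP library lay below the lowest hepCLiP library. Foxa1, a pioneer factor of liver and gut endoderm, was above the hepCLiP range in 2 of 3 bilCLiP libraries, with 4.62, 0.497 and 1.18 against 2.24, 8.61 and 13 CPM (log2 1.92 ± 0.87, adjusted p = 0.301).

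Metabolic lists of hepatocytes ran mostly below 0 without calls. Of 31 urea cycle and amino acid genes, 28 lay below 0 (median -0.41) and 3 had no overlap, all lower, near the 10.3% of all autosomal genes, while in 2D the median was -1.53. The 2D median rests on low values, with a list level of 2.53, 2.235 and 2.72 in hepCLiP and 1.77, 1.82 and 1.83 in bilCLiP. Cps1, which makes carbamoyl phosphate for the urea cycle, had 1091, 507 and 2387 CPM in hepCLiP and 85, 1412 and 394 CPM in bilCLiP (log2 -1.08 ± 1.11, adjusted p = 0.648), a wide overlap in which bilCLiP replicate 2 exceeded hepCLiP replicates 1 and 2. Among RosaYFP samples its log2 fold change was 0.31, and with genotype as a covariate 0.73, the opposite direction. Of 13 gluconeogenesis genes 11 lay below 0 (median -0.59). Pcx, pyruvate carboxylase, had 459.6, 459 and 265 against 92.8, 145 and 151 CPM without overlap (log2 -1.61 ± 0.30, adjusted p = 0.109; DESeq2 adjusted p = 0.000127), and was called without hepCLiP 3D replicate 3. Of 21 bile acid genes 18 lay below 0 (median -0.58), with 4 lower and 1 higher without overlap, beside 10.3% and 11.4% of all autosomal genes. Slc27a5, the ligase that activates bile acids for conjugation, had 319.9, 446 and 212 against 36.3, 145 and 77.3 CPM (log2 -1.92 ± 0.48, adjusted p = 0.16; DESeq2 adjusted p = 0.0115).

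Cytochrome P450 and drug metabolism genes lay on both sides of 0, with 18 of 34 above it and a median of 0.03 in 3D and -2.04 in 2D. None was called by edgeR, and 2 were called lower by DESeq2, beside 2.73% of all autosomal genes. Without overlap, 2 lay higher and 3 lower, below the shares of 11.4% and 10.3% over all autosomal genes. Cyp3a11, the main drug-metabolizing cytochrome induced by xenobiotics, had 563, 255 and 3318 CPM in hepCLiP and 1436, 2310.3 and 1705 CPM in bilCLiP, inside the hepCLiP range (log2 0.40 ± 1.67, adjusted p = 0.934). Without hepCLiP 3D replicate 2 its log2 fold change was -0.10, and without hepCLiP 3D replicate 3, the highest library, it was 2.15. Cyp2e1, a pericentral cytochrome, stayed under 5 CPM in every 3D library (2.78, 4.97 and 0.208 against 0.725, 1.03 and 0.464 CPM). The 2 members that lay higher in every bilCLiP library encode carboxylesterases, Ces2a with 66.2, 102 and 118 against 398, 637 and 319 CPM and Ces3a with 5.13, 2.48 and 2.43 against 8.23, 13.7 and 6.67 CPM (log2 2.24 ± 1.04 and 1.51 ± 0.52, adjusted p = 0.307 and 0.226). The 3 that lay lower were Cyp2d26, with 658, 719 and 438 against 199.8, 415 and 266 CPM, Cyp2f2, a periportal cytochrome, with 3.59, 8.09 and 8.41 against 0.198, 2.41 and 0.812 CPM, and the glucuronosyltransferase gene Ugt2b1, with 5.57, 11.6 and 5.91 against 1.84, 3.33 and 2.44 CPM. Their edgeR adjusted p was 0.47, 0.179 and 0.204, and DESeq2 gave 0.58, 0.0382 and 0.0344.

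Genes of sterol and fatty acid synthesis mostly lay lower in bilCLiP 3D. All 23 cholesterol synthesis genes had a log2 fold change below 0 (median -0.74), 10 of them lower in every bilCLiP library, beside 10.3% of all autosomal genes. None was called by edgeR, and DESeq2 called 3 lower, beside 2.73% of all autosomal genes. In 2D the median was 0.15. Tm7sf2, a sterol reductase, had 99.6, 144 and 62 CPM in hepCLiP and 32.4, 44.3 and 46.1 CPM in bilCLiP (log2 -1.32 ± 0.35, adjusted p = 0.163; DESeq2 adjusted p = 0.0145). Stard4, a carrier of cholesterol between membranes, had 237, 123 and 137 against 89.8, 96.8 and 87 CPM (log2 -0.86 ± 0.22, adjusted p = 0.163), and Insig1, the sterol sensor that retains SREBP, had 457, 414 and 175 against 94.1, 166 and 154 CPM (log2 -1.34 ± 0.51, adjusted p = 0.244). For Tm7sf2 and Insig1, hepCLiP replicate 3 was the lowest of its group and nearest to bilCLiP. The level of the whole list was 7.63, 7.33 and 6.68 in hepCLiP and 6.07, 6.64 and 6.67 in bilCLiP, so the groups were separated only narrowly.

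Of 24 fatty acid and triglyceride synthesis genes, 23 lay below 0 (median -0.58; -0.25 in 2D) and 10 had all bilCLiP libraries below hepCLiP. Thrsp was called and DESeq2 called 5 lower. Over all autosomal genes 10.3% lay lower without overlap, 0.0492% were called lower and DESeq2 called 2.73% lower. Scd1, the desaturase that makes oleate, had 2443, 2479.9 and 1879 CPM in hepCLiP and 327, 888 and 845 CPM in bilCLiP (log2 -1.72 ± 0.46, adjusted p = 0.163; DESeq2 adjusted p = 0.00644). The difference in 2D was 0.18 ± 0.45 (adjusted p = 0.889). Gpam, the first acyltransferase of triglyceride synthesis, had 445, 621 and 381 against 164, 297 and 198 CPM (log2 -1.14 ± 0.32, adjusted p = 0.164), and Acaca, acetyl-CoA carboxylase, 157, 158 and 103 against 62, 97.6 and 79 CPM (log2 -0.81 ± 0.20, adjusted p = 0.163). The list's level was 6.76, 6.71 and 6.39 in hepCLiP and 5.75, 6.22 and 6.02 in bilCLiP, without overlap. Without hepCLiP 3D replicate 3, Acaca was called beside Thrsp. The 24 fatty acid oxidation genes had a median of -0.15 and 2 lower without overlap, under the share of 10.3% over all autosomal genes.

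Genes that respond to interleukin 6 and its relatives mostly lay lower in bilCLiP spheroids, while both origins had been given oncostatin M. Of 32 acute phase and STAT3 target genes, 24 lay below 0 (median -0.55; -1.15 in 2D) and 11 had all bilCLiP libraries below hepCLiP, against 10.3% of all autosomal genes, with none called by edgeR and 2 lower by DESeq2 (2.73% of all autosomal genes). The list's level was 9.41, 9.58 and 9.33 in hepCLiP and 8.05, 9.05 and 8.89 in bilCLiP, without overlap. Pim1, a kinase induced by STAT3, had 22.2, 20.1 and 13.7 CPM in hepCLiP and 2.17, 8.55 and 5.45 CPM in bilCLiP (log2 -1.79 ± 0.48, adjusted p = 0.163; DESeq2 adjusted p = 0.0118). The acute phase gene Lrg1 had 1368, 2220.2 and 1265 against 558, 1122 and 964 CPM (log2 -0.88 ± 0.38, adjusted p = 0.283). Saa1 and Saa2, serum amyloid genes, had 3434, 10286 and 3098 and 2840.1, 5363 and 2019 CPM in hepCLiP against 192, 3007 and 2342 and 53.2, 1254 and 975 CPM in bilCLiP, with adjusted p of 0.418 and 0.254. Reads of these near-identical genes can be split between copies, as in the Orm, Serpina1, Serpina3, Cyp2c and Cyp2d families. Stat3 itself had 369, 345 and 283 against 251, 279 and 269 CPM (log2 -0.32 ± 0.19, adjusted p = 0.401).

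Of 21 hypoxia and glycolysis genes, 10 had all bilCLiP libraries below hepCLiP and 1 above, against 10.3% and 11.4% of all autosomal genes (median -0.51, and -0.34 in 2D). None was called by edgeR. DESeq2 called 4 lower and 1 higher, beside 2.73% and 1.66% of all autosomal genes. The exception was Ldhb, the heart-type subunit of lactate dehydrogenase, with 9.96, 5.18 and 11.3 CPM in hepCLiP and 251, 41 and 69 CPM in bilCLiP (log2 3.77 ± 0.78, adjusted p = 0.125; DESeq2 adjusted p = 1.66e-05). Ldha, the subunit that prevails in hepatocytes, had 909, 899.6 and 972 against 541, 619.9 and 824 CPM (log2 -0.49 ± 0.28, adjusted p = 0.402), lower in every bilCLiP library. Ero1a, an oxidase of protein folding induced by hypoxia, had 73.9, 81.2 and 79.1 against 51.2, 32.1 and 49.8 CPM (log2 -0.81 ± 0.21, adjusted p = 0.163), and the glucose transporter Slc2a1 had 77.8, 70.4 and 62.5 against 49.9, 35.6 and 49.9 CPM (log2 -0.64 ± 0.19, adjusted p = 0.183). The list's level, 5.54, 5.86 and 5.94 in hepCLiP and 5.65, 5.23 and 5.47 in bilCLiP, overlapped between the groups.

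**Figure D4:**
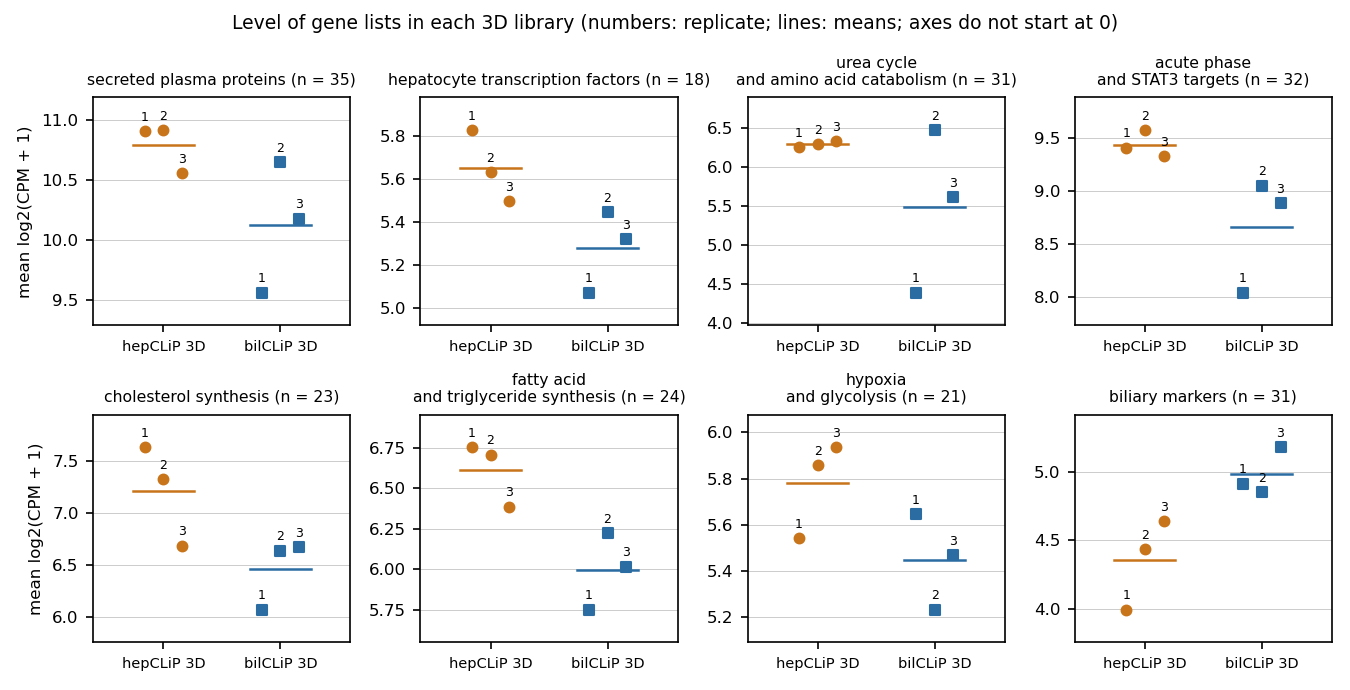
Level of 8 gene lists (mean of log2(CPM + 1) over the autosomal members tested) in each 3D library, circles for hepCLiP and squares for bilCLiP, with replicate numbers and a line at each group's mean; axes do not start at 0. The plasma protein, urea cycle and hypoxia levels overlap between origins, and in 6 panels bilCLiP replicate 1 is the lowest library of all.

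Biliary markers mostly lay higher in bilCLiP 3D. Of 31 tested members 25 lay above 0 (median 0.62; 0.17 in 2D), 8 had all bilCLiP libraries above hepCLiP and 1 all below, beside 11.4% and 10.3% of all autosomal genes, and 1, Dcdc2a, was called. DESeq2 called 3 of the list higher. Over all autosomal genes, edgeR called 0.0492% higher and DESeq2 1.66%. The list's level was 3.99, 4.44 and 4.64 in hepCLiP and 4.91, 4.85 and 5.18 in bilCLiP, without overlap. Cd24a, a surface glycoprotein of ducts and progenitors, had 199, 295 and 389 CPM in hepCLiP and 541, 487 and 575 CPM in bilCLiP (log2 0.86 ± 0.24, adjusted p = 0.167; DESeq2 adjusted p = 0.026). Pkhd1, the fibrocystin gene of the primary cilium, had 7.69, 7.8 and 10.3 against 24.8, 10.6 and 18.2 CPM (log2 1.06 ± 0.37, adjusted p = 0.22), and Epcam, an epithelial adhesion molecule, 2.12, 0.639 and 2.22 against 4.74, 3.73 and 7.48 CPM (log2 1.67 ± 0.63, adjusted p = 0.239). Ehf, an epithelial ETS factor, had 39.3, 48.2 and 48.7 against 80.4, 72.3 and 103 CPM (log2 0.91 ± 0.50, adjusted p = 0.382), and all 4 lay higher in every bilCLiP library.

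The classical duct markers overlapped between the origins. Krt19 had 1.17, 18.7 and 6.32 CPM in hepCLiP 3D and 1.25, 2.64 and 12.1 CPM in bilCLiP 3D (log2 -0.71 ± 0.91, 95% interval -2.72 to 1.29, adjusted p = 0.72), low in both, and its log2 fold change was 0.50 without hepCLiP 3D replicate 2. Krt7 had 4.4, 80.7 and 82.2 against 81.1, 65.9 and 171 CPM, with hepCLiP replicate 1 far below the rest (log2 0.92 ± 0.87, adjusted p = 0.61). Sox9 had 113, 65.2 and 68.5 CPM in hepCLiP and 88.6 to 123 CPM in bilCLiP (log2 0.34 ± 0.38, 95% interval -0.50 to 1.18, adjusted p = 0.682). Spp1, encoding osteopontin, was abundant in both, at 14475, 11103 and 15466 against 33046, 13421 and 27945 CPM (log2 0.86 ± 0.48, adjusted p = 0.384).

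Lgr5, a Wnt target and progenitor marker, had 0.0733, 0.426 and 0.347 CPM in hepCLiP and 5.53, 1.44 and 3.02 CPM in bilCLiP (log2 3.52 ± 0.89, adjusted p = 0.163; DESeq2 adjusted p = 0.00388), while in 2D the difference was -0.02 ± 0.72. Axin2, another Wnt target, had 2.64, 4.97 and 1.46 against 23.6, 4.71 and 8.88 CPM with slight overlap (log2 2.03 ± 0.64, adjusted p = 0.195), and Slc1a2, a glutamate transporter of pericentral hepatocytes, 3.0, 2.41 and 4.31 against 29, 29.5 and 8.59 CPM (log2 2.78 ± 0.68, adjusted p = 0.157). DESeq2 gave Axin2 and Slc1a2 adjusted p of 0.0347 and 0.00259. The list of 18 pericentral genes that holds Slc1a2 had 8 above and 10 below 0 (median -0.09). Without overlap, 2 of the 18 were higher and 1 lower, beside 11.4% and 10.3% of all autosomal genes. Of 17 periportal genes, 16 lay below 0 (median -0.44), with 4 lower and none higher without overlap, beside the same shares. None of the 17 was called by edgeR, and DESeq2 called 3 lower, beside 2.73% of all autosomal genes. Of the 11 Wnt targets tested, 7 lay above 0 (median 0.32), 1 of them without overlap, under the share of 11.4% over all autosomal genes. DESeq2 called 2 of the 11 Wnt targets and 3 of the 18 pericentral genes higher, beside 1.66% of all autosomal genes, and none lower.

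YAP and TEAD targets had 12 of 24 above 0 (median 0.04), with 4 higher and 1 lower without overlap, beside 11.4% and 10.3% of all autosomal genes. Ankrd1, a stretch-responsive YAP target, had 57.7, 69.7 and 148 against 183, 182 and 249.9 CPM (log2 1.16 ± 0.36, adjusted p = 0.19; called without hepCLiP 3D replicate 3). Of 13 mesenchymal genes Sparc was called and 7 lay below 0, while 0.0492% of all autosomal genes were called higher. Without overlap, 2 of the 13 lay higher and 1 lower, beside the same shares of 11.4% and 10.3%. Mmp2, a gelatinase, had 0.733, 0.142 and 0.278 against 19, 2.24 and 3.48 CPM (log2 4.40 ± 1.21, adjusted p = 0.163). Fn1, encoding fibronectin, lay the other way, at 12969, 7432 and 7584 against 5704, 4780.3 and 4999 CPM (log2 -0.85 ± 0.45, adjusted p = 0.359), so matrix genes went in both directions. The basement membrane collagen Col4a1 had 107, 95.1 and 121 against 222, 157 and 177 CPM (log2 0.78 ± 0.34, adjusted p = 0.286) and Col6a2 11.4, 6.74 and 3.82 against 0.593, 0.746 and 2.09 CPM (log2 -2.67 ± 1.15, adjusted p = 0.282). Cell cycle genes had a median of -0.12 with 1 of 40 without overlap (under the shares over all autosomal genes), and the 19 NF-kB and chemokine genes a median of 0.07 with none. Of 16 fetal liver and progenitor genes 3 were higher and 3 lower without overlap, beside the same shares. Peg3, an imprinted gene of progenitors, had 605, 504 and 757 against 1034, 1590.4 and 1092 CPM (log2 0.99 ± 0.26, adjusted p = 0.163), while Afp had 224, 59.5 and 215 against 127, 306 and 761 CPM (log2 1.26 ± 0.99, adjusted p = 0.543).

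**Figure D5:**
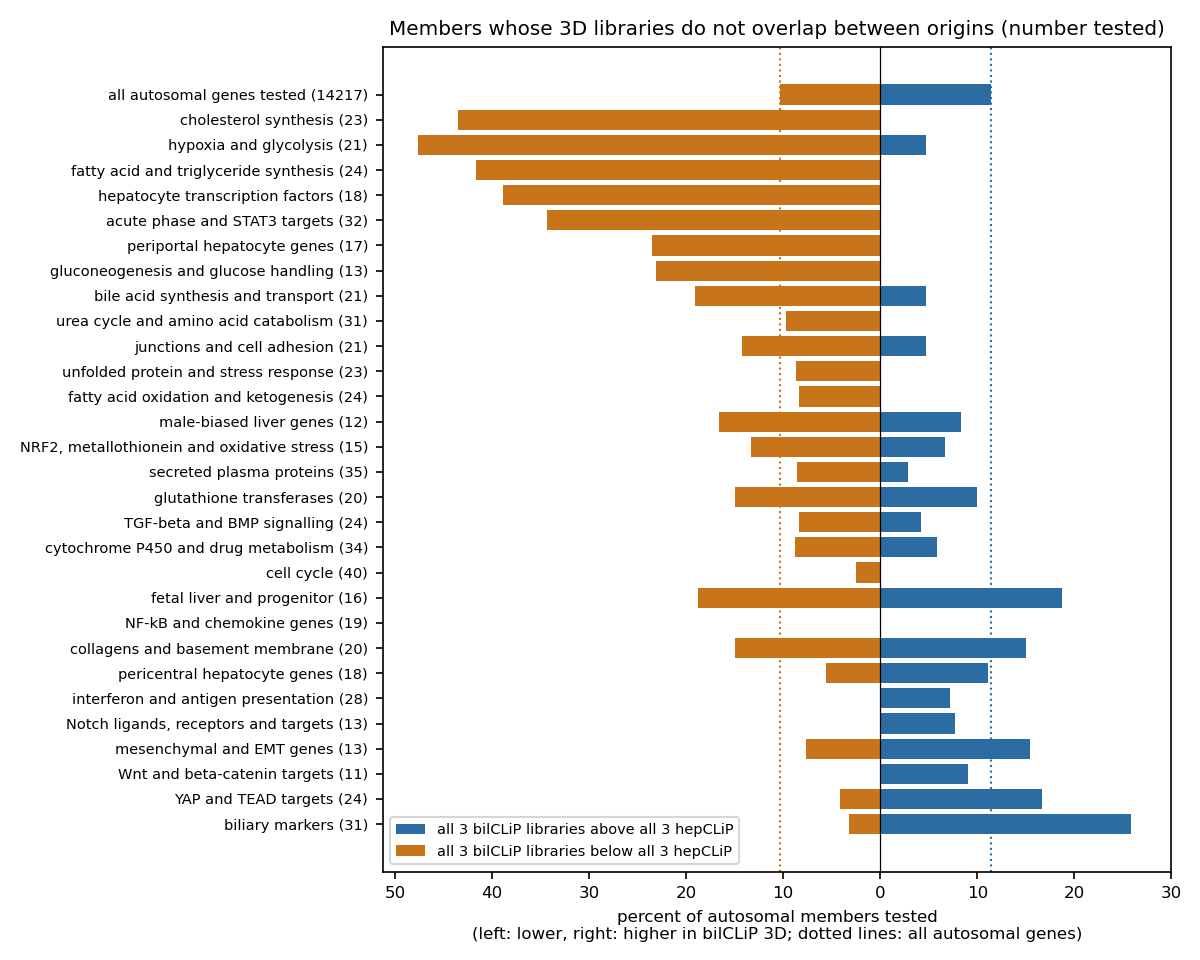
Percent of the autosomal members tested in each gene list with at least 10 tested members whose 3 bilCLiP 3D libraries lie all above (right, blue) or all below (left, orange) the 3 hepCLiP 3D libraries; the top bar and dotted lines give all 14217 autosomal genes (11.4% and 10.3%). Cholesterol synthesis, hypoxia and glycolysis and fatty acid synthesis reach furthest to the left, with 10 members each, and among the lists drawn biliary markers reach furthest to the right, with 8.

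In some hepatocyte genes, hepCLiP replicate 2 lay apart from hepCLiP replicates 1 and 3 and within the bilCLiP range. Serpina1e, of the male-biased liver list, had 2677, 7.09 and 1307 CPM in hepCLiP 3D and 9.22, 4.88 and 8.18 CPM in bilCLiP 3D, so hepCLiP replicate 2, which lacks Y-linked RNA, lay with bilCLiP (log2 -7.49 ± 1.79, adjusted p = 0.163; DESeq2 adjusted p = 0.00435). Within RosaYFP samples its log2 fold change was 0.058. Mat1a, the methionine adenosyltransferase of adult liver, had 237, 61.4 and 388 against 18, 96.8 and 72.6 CPM, again with hepCLiP replicate 2 inside the bilCLiP range (log2 -1.87 ± 0.83, adjusted p = 0.29; 0.018 within RosaYFP samples). The same held for Serpina1b, a copy of the alpha-1-antitrypsin gene whose reads may be shared with near-identical copies, with 8017, 1428 and 6117 against 1548, 1283 and 1755 CPM, and for Tdo2, which starts tryptophan breakdown, with 145, 7.45 and 121 against 1.05, 50.2 and 41.6 CPM (adjusted p = 0.47 and 0.479). Of the 12 male-biased liver genes tested, 2 were lower and 1 higher without overlap (median 0.16), near the shares of 10.3% and 11.4% over all autosomal genes. Whether reporter, sex-linked status or the single library sets these values cannot be told apart.

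Markers of other cell types were low in the spheroids, with 2 exceptions. Summed over 9 endothelial markers, CPM was 0.426 to 0.659 in hepCLiP 3D and 0.0659 to 0.638 in bilCLiP 3D, with Clec4g, Tie1 and Emcn at 0 throughout. The 10 macrophage and leukocyte markers summed to 6.31 to 19.7 and 5.14 to 19.2 CPM, led by Csf1r, with Clec4f, Adgre1, C1qb and Cd3e at 0. The 6 mesothelial markers summed to 5.93 to 26.1 and 13.04 to 28.1 CPM, and the 13 squamous markers to 3.69 to 9.38 and 2.77 to 7.23 CPM. The 13 fibroblast and stellate markers summed to 6.46 to 291.9 CPM in hepCLiP and 24.7 to 39.7 CPM in bilCLiP. The first range was set by Dcn, encoding decorin, at 282, 4.68 and 2.64 CPM in hepCLiP, while Col1a1 and Pdgfrb stayed under 2 CPM in every 3D library. In bilCLiP Dcn was at 6.98, 6.37 and 17.8 CPM, above hepCLiP replicates 2 and 3 in every library. Other members thus made up part of the bilCLiP sum. Of the 3 members tested, 1 lay above 0 and 2 below. Their level was 4.08, 1.52 and 1.32 in hepCLiP 3D and 2.52, 2.68 and 2.60 in bilCLiP 3D. Stellate cells also express Sparc, and the part of this list in its difference was not tested. The 16 gut and pancreas markers summed to 228 to 1578 CPM in hepCLiP and 1418 to 14220 CPM in bilCLiP, with Cdx1, Pdx1 and Prss1 at 0. Reg3b, a secreted lectin of gut and stressed liver, had 856, 23.8 and 17.8 against 11197, 185 and 2279.5 CPM (log2 3.93 ± 2.33, adjusted p = 0.411), and Tff3, a secreted mucosal peptide, 0.366, 169 and 1.74 against 199, 940.2 and 183 CPM (log2 2.95 ± 1.54, adjusted p = 0.359). Their part in the differences between the origins was not tested.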

How the data were processed

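Per the labels' protocols, RNA was extracted with a column kit and libraries were prepared by a commercial provider. The submitters' processing notes list the aligner STAR 2.7.10b, the read counter featureCounts 2.0.1, DESeq2 and the build GRCm39. Strand setting and annotation were not given in the sources used here. Reads of genes that overlap, or lie antisense to each other, may thus be mixed. The authors deposited raw counts per gene and a normalized table (unit signal). Dividing a sample's raw counts by 1 number gave its normalized values, to within 0.001 of their size. Of 53599 genes, 24092 had no count.

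The deposited raw counts went into edgeR 4.0.16 under R 4.3.3 (filterByExpr, TMM, robust glmQLFit with 4 group means over all 12 libraries, glmQLFTest). The contrasts were bilCLiP against hepCLiP in 3D, the same in 2D, and their difference. Adjusted p-values are Benjamini-Hochberg over the 14798 genes tested and are edgeR's except where DESeq2 or limma is named. Genes were called at 0.05. SE is the log2 fold change over the root of F. Of the genes tested, 14217 are autosomal by RefSeq and GENCODE tables of GRCm38, 500 X-linked, Y-linked or mitochondrial, 3 on unplaced scaffolds, and 78 had no chromosome. DESeq2 1.42.0 and limma 3.58.1 gave alternatives, and scripts were tested on simulated data. Figures used matplotlib 3.10.9.

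A total of 38 gene lists were used. The members, lists and tests were chosen with earlier results of these data known, and lists were described by counts and medians without a list test. Named were up to 12 called genes per direction without overlap and with at least 5 CPM in a group, 15 markers, the leading member of each list and up to 4 called members per list, plus the sex-linked and Rosa26 genes. Other genes were chosen after their values were seen, and some genes are not reported here. Folds against 0 counts use 3 counts as a floor.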

Additional observations from a re-analysis of the deposited data

How the results depend on the processing

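The count of genes called in 3D (15) was 652 by DESeq2, 26 by limma on the authors' normalized counts, 7 in a test against a 2-fold difference, 3 on the 6 3D libraries alone, and 3 to 251 with 1 library left out, the highest without hepCLiP 3D replicate 3 and the lowest without hepCLiP 3D replicate 1. It was 18 with DESeq2 size factors, 21 without a low-count filter, 15 with a filter of 1 CPM, 12 among RosaYFP samples and 20 with genotype as a covariate. What same-numbered libraries of the 2 origins share beyond the number is not stated in the labels. Correlations of their deviations in 3D were 0.108, 0.150 and 0.0867, and each library correlated best with its own number in the other origin. A shared preparation was not tested. With the replicate block the count was 44 on 12 libraries and 5 on the 6 3D libraries. Of the 14 genes, whether or not still called in 3D, the 6 called in 2D became 11 by DESeq2, 3 at 2-fold, 0 among RosaYFP samples and 2 to 6 with 1 library left out. Their interaction count of 0 became 2 by DESeq2 and stayed 0 with origin and replicate number together as a block. The cause was not tested.

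Of the 14 called genes none reversed. Uncalled genes did, at these log2 fold changes. Among RosaYFP samples they were Cd74 0.57, Cdc20 0.43, Cps1 0.31, Dcn 1.14, Mat1a 0.018, Msln -0.20 and Serpina1e 0.058. With genotype as a covariate they were Alb 0.43, Cps1 0.73, Dcn 1.09, Kdm5d 0.22, Mat1a 0.0030, Msln -0.65 and Serpina1e 0.057. Kdm5d had 0 CPM in every RosaYFP library, so its 0.22 sets 0 against 0, though it is counted as reversed below. With 1 library left out, the log2 fold change ran from -2.34 to 0.31 for Cd74, -0.047 to 1.10 for Csf1r, -3.53 to 0.60 for Cxcl5, -0.81 to 3.61 for Cyp2a4, -0.10 to 2.15 for Cyp3a11 and -3.85 to 1.49 for Dcn. It ran from -2.16 to 0.50 for Krt19, -0.48 to 0.45 for Msln, -3.39 to 0.33 for Saa3, -0.76 to 6.62 for Serpina6 and -0.0082 to 0.14 for Setd5. Over all settings, 1392 log2 fold changes of single genes kept direction and call, 129 lost a call, 24 gained one and 27 reversed. With 3 libraries per group, the precision of uncalled differences is low, and it also depends on the spread in 2D.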

Other observations

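Some genes varied widely between libraries of one origin. H19, a maternally expressed noncoding RNA, had 1067, 4806 and 673 CPM in hepCLiP 3D and 11.7, 6685 and 1316 CPM in bilCLiP 3D, and Serpina6, encoding the corticosteroid carrier, had 1.83, 21 and 0.834 against 384, 6.43 and 2.96 CPM. Cxcl5, a chemokine gene, was high in hepCLiP replicate 2 alone (12.2, 309.8 and 17.2 CPM, against 47.6, 6.95 and 12.7 in bilCLiP). Cyp17a1, a steroid hydroxylase, had 6.3, 2.06 and 54.4 CPM in hepCLiP and 0.395, 0.517 and 0 CPM in bilCLiP (log2 -6.08 ± 1.34, edgeR adjusted p = 0.137, DESeq2 adjusted p = 9.96e-05), without overlap between the groups.

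By DESeq2, 16 genes had an origin difference that itself differed between the cultures, and edgeR called none of them. Several encode secreted or metabolic hepatocyte products whose fitted values in bilCLiP were far below hepCLiP in 2D and close to it in 3D. Vtn, encoding vitronectin, had a log2 fold change of -4.11 in 2D and -0.28 in 3D (DESeq2 interaction adjusted p = 0.00371). Fabp1, the liver fatty acid binding protein, had -3.72 and 0.14 (0.0283), Ftcd, an enzyme of histidine breakdown, -4.13 and -0.27 (0.0331), and Sult1d1, a sulfotransferase, -4.40 and 0.12 (0.00118).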
